A study of Homo sapiens with 12 samples.

Results

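The 10 genes followed here, called the members, were the ligands TGFB1, TGFB2, TGFB3, BMP2, BMP4, BMP6, GDF15 and INHBA, and the secreted antagonists GREM1 and FST. They were taken by name as ligands and antagonists of the TGF-beta and BMP pathways, whatever their values, and all 10 were among the 48162 gene IDs of the files. Their messenger RNA was read by sequencing in 4 groups of 3 libraries, 12 in all, of the fibroblast line IMR90 from normal human lung. Control cells carried the empty retroviral vector pBABE. RAS cells carried pBABE with HRAS G12V, an oncogene that drives fibroblasts into senescence. RAS/shDOT1L cells carried the same oncogene and a lentiviral hairpin against DOT1L, the histone H3 lysine methyltransferase. DOT1L OE cells overexpressed wild-type human DOT1L and no oncogene. All 4 groups were grown in 2% oxygen and selected for 4 days. Selection was with puromycin at 3 µg/mL in control, RAS and RAS/shDOT1L, and with blasticidin at 1 µg/mL in DOT1L OE. The methods of the study name another vector, MSCB, for DOT1L, and no group carried it empty. The drug, the vector and the DOT1L transgene therefore cannot be told apart. A single hairpin was used, a control hairpin is not named in the labels of the RAS group, and reads of a transgene and of the gene in the genome count together. The study asked whether DOT1L controls the senescence-associated secretory phenotype, the factors that senescent cells release.

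Ligands of the TGF-beta superfamily are secreted as dimers, and most of them, though not GDF15, bind complexes of type I and type II receptor kinases. The receptors phosphorylate SMAD2 and SMAD3 after TGF-beta or activin, and SMAD1, SMAD5 and SMAD9 after BMP, and these move to the nucleus with SMAD4. Antagonists bind ligands outside the cell: follistatin, the product of FST, binds activin, and gremlin, the product of GREM1, binds BMP2 and BMP4. In fibroblasts TGF-beta is known for inducing contractile and matrix genes, BMP for inducing the ID genes, and TGF-beta family ligands are among the factors that senescent cells secrete.

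The sequences upstream of 3 members are shown because INHBA and FST, a ligand subunit and its antagonist, gave opposite changes with RAS, and because the GREM1 window held the most SMAD-type matches. They were read from RefSeq on GRCh38.p14, run 5′ to 3′ on the gene's strand, and end at or just before the first transcribed base. The INHBA window is chr7:41703091-41703340 on the minus strand, the FST window is chr5:53480379-53480625 on the plus strand, and the GREM1 window is chr15:32717754-32718003 on the plus strand. The INHBA window lies upstream of the RefSeq start used here and inside the gene as GENCODE 44 annotates it. The GREM1 window lies in an exon of the antisense RNA gene GREM1-AS1. Capitals mark C/EBP-type matches in INHBA, AP-1, C/EBP and kappaB-type matches in FST, and SMAD-type matches in GREM1.
INHBA: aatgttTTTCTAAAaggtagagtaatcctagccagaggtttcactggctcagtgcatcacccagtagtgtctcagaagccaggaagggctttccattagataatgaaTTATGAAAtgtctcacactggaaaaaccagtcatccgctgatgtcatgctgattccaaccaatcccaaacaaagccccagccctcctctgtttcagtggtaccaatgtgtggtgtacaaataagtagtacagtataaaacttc
FST: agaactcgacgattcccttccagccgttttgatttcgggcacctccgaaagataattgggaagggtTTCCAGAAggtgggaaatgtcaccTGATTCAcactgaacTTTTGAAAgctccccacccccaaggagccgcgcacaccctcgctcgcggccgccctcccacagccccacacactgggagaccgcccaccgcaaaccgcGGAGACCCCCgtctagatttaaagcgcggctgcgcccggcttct
GREM1: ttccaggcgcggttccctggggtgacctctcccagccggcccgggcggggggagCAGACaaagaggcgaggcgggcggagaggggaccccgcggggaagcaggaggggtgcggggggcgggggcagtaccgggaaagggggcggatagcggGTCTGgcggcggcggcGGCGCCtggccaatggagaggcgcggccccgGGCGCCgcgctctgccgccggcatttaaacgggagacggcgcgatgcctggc

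6 motifs were searched on both strands of the 250 bases before the start site in 35116 promoter windows, of which 13 belonged to 9 members. BMP2 had no window and was not searched. The AP-1 motif TGANTCA was in 6.57% of all windows and, among the members, in FST alone, at -160 to -154 from the start site. The C/EBP motif TTNNGNAA was in 33.2% of windows and had 2 matches each in FST, INHBA and the second TGFB3 window. The kappaB motif was in 5.21% of windows and matched FST and BMP6. The CRE motif TGACGTCA, in 1.65% of windows, matched none of the 13. The SMAD motif CAGAC was in 38.0% of windows and in 7 of the 13, and the BMP-responsive motif GGCGCC was in 16.4% of windows and in 2 of the 13, BMP4 and GREM1, with 2 matches in GREM1. The TGFB1 window held none of the 6. These matches describe letters in a window and not bound sites.

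Library totals ran from 16128055 to 19503457 counts. DOT1L and HRAS followed the labels in all 12 libraries: against control, DOT1L was 2.66-fold higher in RAS and 6.38-fold higher in DOT1L OE, and RAS/shDOT1L held 7.58-fold less of it than RAS. HRAS was raised 5.85-fold in RAS against control. It was 1.80-fold lower in RAS/shDOT1L than RAS, and the part of this lower oncogene level in the values of RAS/shDOT1L was not tested. All 12 fibroblast markers were over 1 CPM in every group. Mitochondrial genes took 3.64% to 3.87% of counts in RAS and 2.12% to 2.54% elsewhere. Genes were called by the quasi-likelihood test of edgeR, with TMM scaling, where the adjusted p was under 0.05. When libraries were scaled by size alone, the median of all genes moved from -0.04 to -0.24 (log2) in RAS against control, from -0.01 to -0.13 in RAS/shDOT1L against control and from 0.03 to 0.31 in DOT1L OE against RAS. The share of calls that were higher moved with it, from 49.9% to 36.9%, from 50.3% to 40.0% and from 50.7% to 67.9%. The study describes its libraries both as technical and as biological replicates, so the spread behind each p-value may be technical. In bulk RNA, fewer expressing cells and less RNA per cell cannot be told apart.

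Levels are given as CPM, counts divided by the TMM-scaled library size. Ratios of counts within a library have no correction for gene length and are compared only between groups. Levels of different genes are compared as CPM per kb of annotated exon. On that per-length scale TGFB1 led the members in control, at 38.9 ± 2.96 CPM per kb (SD, n = 3), with GDF15 at 37.5 ± 2.23, FST at 28.0 ± 1.63 and GREM1 at 21.2 ± 0.298. In RAS, GDF15 led at 378 ± 16.4 CPM per kb, followed by BMP2 at 112 ± 1.83, TGFB1 at 103 ± 4.83 and INHBA at 70.2 ± 0.478. In RAS/shDOT1L, GDF15 stood at 89.1 ± 4.98 and INHBA at 65.3 ± 2.80, ahead of TGFB1 at 52.1 ± 1.31. In DOT1L OE, TGFB1 led at 128 ± 1.64 CPM per kb, with BMP2 at 101 ± 4.42, GDF15 at 84.1 ± 7.38 and GREM1 at 68.7 ± 0.455. TGFB3 and BMP6 stayed under 0.2 CPM per kb in every group. The GREM1 length of 14784 bases is the union of all annotated exons, which lowers its per-length level against a shorter transcript.

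**Figure D1:**
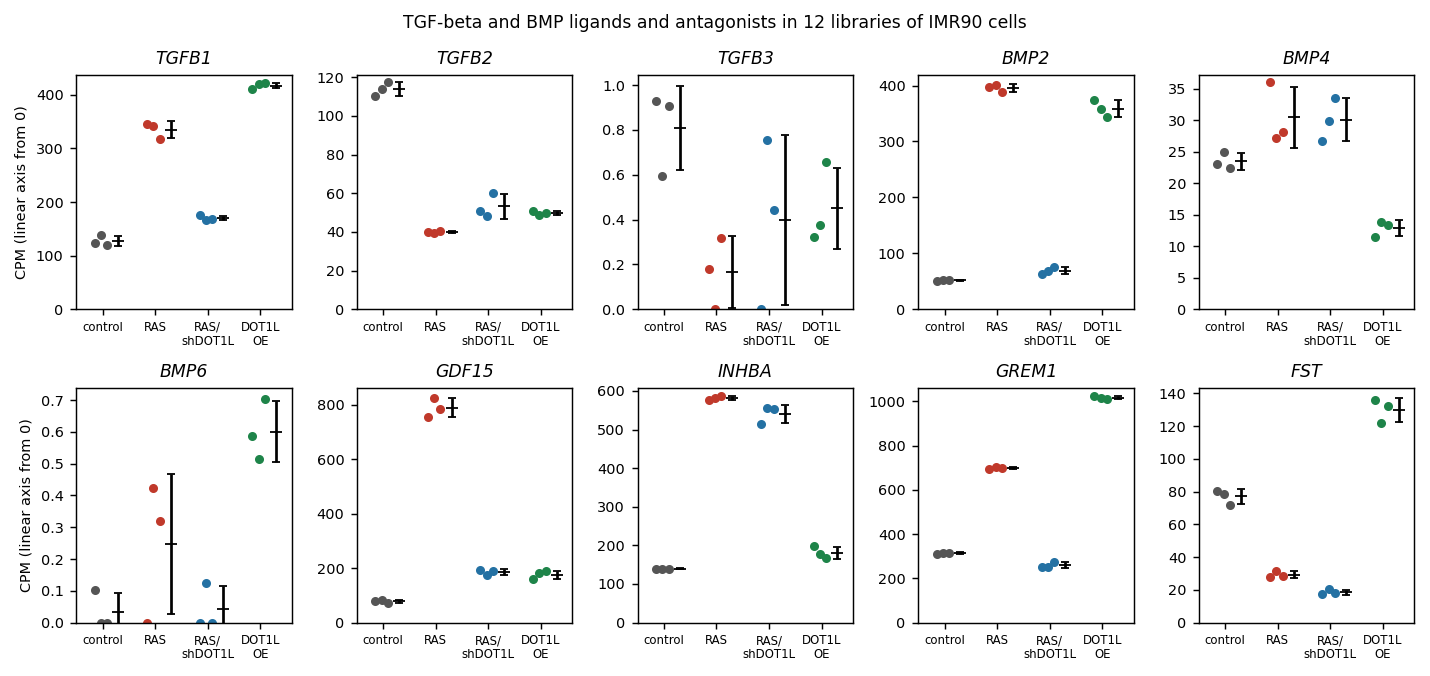
CPM of each member (linear axis from 0, a scale of its own in each panel) in the 3 libraries of control, RAS, RAS/shDOT1L and DOT1L OE; coloured points are libraries and the black mark is the mean ± SD. BMP2 and TGFB1 were high in RAS and DOT1L OE, INHBA in RAS and RAS/shDOT1L, GDF15 in RAS, and FST in control and DOT1L OE.

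Of the 10 members, 9 passed the filter on low counts in RAS against control, and 6 rose and 3 fell (edgeR, adjusted p under 0.05). Of all tested genes 64% were called, 31.9% higher and 32% lower. The 2 groups did not overlap for those 9, as for 67.8% of tested genes, and 7 changed by over 1.5-fold, as did 26.9% of genes. GDF15, BMP2, INHBA, TGFB1, GREM1 and BMP4 were higher in RAS, and TGFB2, FST and TGFB3 were lower. TGFB3, counted among the 3 that fell and the 9 without overlap, passed the filter only through control, where it was high. The remaining member, BMP6, had 2, 0 and 0 counts in control and 0, 7 and 5 in RAS and was not tested.

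TGFB1 (ENSG00000105329; chromosome 19, 41301587 to 41353922, minus strand), the TGF-beta isoform gene with the highest level here, stood at 123, 138 and 120 CPM in control, 346, 342 and 317 in RAS, 175, 167 and 168 in RAS/shDOT1L and 411, 419 and 421 in DOT1L OE. No pair of groups overlapped, and the order was control, RAS/shDOT1L, RAS, DOT1L OE. TGFB1 rose 2.64-fold in RAS against control (edgeR log2 change 1.40 ± 0.05 SE, adjusted p = 2.79e-21). RAS/shDOT1L held less of it than RAS (edgeR log2 change -0.96 ± 0.05 SE, adjusted p = 2.51e-16), and DOT1L OE more than control (edgeR log2 change 1.72 ± 0.05 SE, adjusted p = 1.62e-23). TGFB1 transcripts are GC-rich, at 63.6%, and with an offset for GC content the log2 change was 0.80 in RAS against control and -0.53 in RAS/shDOT1L against RAS, both still past the test. TGFB1 overlaps HNRNPUL1 on the opposite strand, which held 47610 counts over the 12 libraries, and the strand setting of the counts is not stated.

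TGFB2 (ENSG00000092969; chromosome 1, 218345336 to 218444619, plus strand), which encodes another TGF-beta isoform, went the other way. It stood at 110, 114 and 117 CPM in control, 39.8, 39.5 and 40.5 in RAS, 50.8, 48.4 and 60.4 in RAS/shDOT1L and 50.7, 48.8 and 49.7 in DOT1L OE. The control libraries were above all others, the RAS libraries below all others, and RAS/shDOT1L and DOT1L OE overlapped. TGFB2 fell 2.86-fold in RAS (edgeR log2 change -1.51 ± 0.07 SE, adjusted p = 6.33e-19) and 2.29-fold in DOT1L OE (edgeR log2 change -1.19 ± 0.06 SE, adjusted p = 7.09e-17) against control. Its log2 change of 0.43 ± 0.10 SE in RAS/shDOT1L against RAS passed the test (edgeR adjusted p = 0.000428), but was 0.17 with the GC offset and did not pass (edgeR adjusted p = 0.167). TGFB3 (ENSG00000119699; chromosome 14, 75958097 to 75983011, minus strand), the isoform with the lowest level, had 18, 11 and 18 counts in control, 3, 0 and 5 in RAS, 0, 12 and 7 in RAS/shDOT1L and 6, 8 and 14 in DOT1L OE. Its fall in RAS against control (edgeR log2 change -2.25 ± 0.89 SE, adjusted p = 0.0273) rested on these few counts: the adjusted p was 0.0595 to 0.128 without control replicate 1, control replicate 3, RAS replicate 1 or RAS replicate 2, and 0.0629 with DESeq2. In the other groups the TGFB3 counts overlapped with control.

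Within a library, the ratio of TGFB1 to TGFB2 counts was 1.11, 1.21 and 1.02 in control, 8.69, 8.67 and 7.82 in RAS, 3.45, 3.45 and 2.79 in RAS/shDOT1L and 8.11, 8.58 and 8.48 in DOT1L OE. Every group stood apart except RAS and DOT1L OE, which overlapped. Against control the ratio was 7.53-fold higher in RAS and 7.54-fold higher in DOT1L OE, with p = 0.1 in an exact two-sided permutation test, the smallest that 3 against 3 libraries can give. Between RAS and DOT1L OE the mean log2 ratios were 3.07 ± 0.09 and 3.07 ± 0.04 (SD, n = 3; exact permutation p = 1). The annotated GC content was 63.6% for TGFB1 and 42.2% for TGFB2. In the fits with the GC offset the log2 difference of the ratio was 0.79 between DOT1L OE and RAS, and 1.93 in place of 2.91 between RAS and control.

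BMP2 (ENSG00000125845; chromosome 20, 6767686 to 6780246, plus strand), a BMP ligand known for bone induction, stood at 49.6, 52.0 and 52.6 CPM in control, 397, 401 and 388 in RAS, 63.0, 68.7 and 74.7 in RAS/shDOT1L and 375, 357 and 344 in DOT1L OE. The RAS and DOT1L OE libraries did not overlap and stood above the other 6. BMP2 rose 7.69-fold in RAS (edgeR log2 change 2.94 ± 0.05 SE, adjusted p = 8.68e-31) and 6.99-fold in DOT1L OE (edgeR log2 change 2.81 ± 0.05 SE, adjusted p = 1.86e-28). In RAS/shDOT1L it was 5.67-fold lower than in RAS (edgeR log2 change -2.50 ± 0.06 SE, adjusted p = 3.26e-26) and 1.34-fold higher than in control (edgeR log2 change 0.43 ± 0.08 SE, adjusted p = 7.28e-05).

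BMP4 (ENSG00000125378; chromosome 14, 53949736 to 53958761, minus strand), a close relative of BMP2, differed from it in pattern. It stood at 23.0, 25.0 and 22.5 CPM in control, 36.0, 27.2 and 28.1 in RAS, 26.7, 29.9 and 33.5 in RAS/shDOT1L and 11.5, 13.8 and 13.3 in DOT1L OE. DOT1L OE was below all other libraries, and RAS and RAS/shDOT1L overlapped. BMP4 fell 1.81-fold in DOT1L OE against control (edgeR log2 change -0.86 ± 0.12 SE, adjusted p = 1.93e-07). Its log2 change of 0.38 ± 0.12 SE in RAS against control (edgeR adjusted p = 0.0077) was 0.24 without RAS replicate 1, 0.18 with library size as the only scaling and 0.08 with the GC offset, and passed the test in none of these. Between RAS/shDOT1L and RAS the difference was -0.001 ± 0.13 SE on the log2 scale (95% interval -0.25 to 0.25, edgeR adjusted p = 0.995), and its sign turned under several settings.

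BMP6 (ENSG00000153162; chromosome 6, 7726099 to 7881728, plus strand), a BMP ligand known for its part in iron sensing in the liver, was near the limit of detection. It had 2, 0 and 0 counts in control, 0, 2 and 0 in RAS/shDOT1L, 0, 7 and 5 in RAS and 11, 11 and 15 in DOT1L OE. The DOT1L OE libraries were above all others. TXNDC5, which overlaps BMP6 on the opposite strand, held 951 counts over the 12 libraries and up to 124 in 1 library, and without the strand setting their reads cannot be told apart. The ratio of summed counts in DOT1L OE to control was 17.4, with a counting interval of 4.48 to 149 (95%, counting error only). BMP6 passed the filter on low counts only through DOT1L OE, the group where it was high. Its call as higher (edgeR adjusted p = 0.00133) was therefore partly set by the filter and is not taken as support for a rise. In RAS against control the ratio was 7.09, with an interval of 1.58 to 65.2.

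GDF15 (ENSG00000130513; chromosome 19, 18374731 to 18389176, plus strand), a stress-induced and distant member of the superfamily, stood at 79.2, 82.3 and 73.2 CPM in control, 756, 825 and 786 in RAS, 193, 174 and 191 in RAS/shDOT1L and 158, 180 and 188 in DOT1L OE. RAS was above all other libraries and control below them, and RAS/shDOT1L and DOT1L OE overlapped. GDF15 rose 10.1-fold in RAS (edgeR log2 change 3.33 ± 0.05 SE, adjusted p = 3.19e-33) and fell 4.19-fold from RAS to RAS/shDOT1L (edgeR log2 change -2.07 ± 0.05 SE, adjusted p = 2.91e-26). It rose 2.25-fold in DOT1L OE against control (edgeR log2 change 1.17 ± 0.06 SE, adjusted p = 1.19e-16). In RAS/shDOT1L it remained 2.39-fold above control (edgeR log2 change 1.25 ± 0.06 SE, adjusted p = 8.93e-16).

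INHBA (ENSG00000122641; chromosome 7, 41667168 to 41705834, minus strand) encodes the subunit whose dimer is activin A. It stood at 138, 140 and 139 CPM in control, 578, 582 and 586 in RAS, 514, 555 and 553 in RAS/shDOT1L and 198, 177 and 168 in DOT1L OE. Every library of the 2 groups with the oncogene was above every library of the 2 without it. INHBA rose 4.19-fold in RAS (edgeR log2 change 2.07 ± 0.04 SE, adjusted p = 5.1e-29) and 3.91-fold in RAS/shDOT1L (edgeR log2 change 1.97 ± 0.05 SE, adjusted p = 4.78e-23) against control. Between RAS/shDOT1L and RAS the libraries did not overlap, but the log2 difference of -0.09 ± 0.04 SE missed the threshold (95% interval -0.17 to 0.002, edgeR adjusted p = 0.109). It passed with DESeq2, at -0.10 (adjusted p = 0.0482), and with the GC offset, at -0.41 (edgeR adjusted p = 1.95e-09). In DOT1L OE, INHBA rose 1.31-fold against control (edgeR log2 change 0.38 ± 0.06 SE, adjusted p = 4.87e-07).

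GREM1 (ENSG00000166923; chromosome 15, 32718004 to 32745106, plus strand), the gene of gremlin, stood at 308, 314 and 316 CPM in control, 696, 705 and 699 in RAS, 250, 252 and 274 in RAS/shDOT1L and 1022, 1015 and 1009 in DOT1L OE. No pair of groups overlapped, and the order was RAS/shDOT1L, control, RAS, DOT1L OE. GREM1 rose 2.24-fold in RAS (edgeR log2 change 1.16 ± 0.04 SE, adjusted p = 2.28e-23) and 3.26-fold in DOT1L OE (edgeR log2 change 1.70 ± 0.04 SE, adjusted p = 1.76e-26) against control. From RAS to RAS/shDOT1L it fell 2.67-fold (edgeR log2 change -1.42 ± 0.05 SE, adjusted p = 2.04e-22). Its log2 change of -0.27 ± 0.05 SE in RAS/shDOT1L against control (edgeR adjusted p = 3.83e-05) was -0.08 with the GC offset and then missed the threshold (edgeR adjusted p = 0.141). The antisense gene GREM1-AS1 held 1706 counts over the 12 libraries.

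FST (ENSG00000134363; chromosome 5, 53480626 to 53487134, plus strand), the gene of follistatin, stood at 80.7, 78.4 and 72.0 CPM in control, 27.7, 31.8 and 28.6 in RAS, 17.6, 20.4 and 17.9 in RAS/shDOT1L and 136, 122 and 132 in DOT1L OE. No pair of groups overlapped, and the order was RAS/shDOT1L, RAS, control, DOT1L OE. FST fell 2.63-fold in RAS (edgeR log2 change -1.39 ± 0.09 SE, adjusted p = 1.42e-15) and 4.12-fold in RAS/shDOT1L (edgeR log2 change -2.04 ± 0.10 SE, adjusted p = 1.36e-16) against control. The step from RAS to RAS/shDOT1L was a further fall (edgeR log2 change -0.64 ± 0.13 SE, adjusted p = 0.000117). In DOT1L OE, FST rose 1.69-fold against control (edgeR log2 change 0.76 ± 0.06 SE, adjusted p = 2.56e-12).

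**Figure D2:**
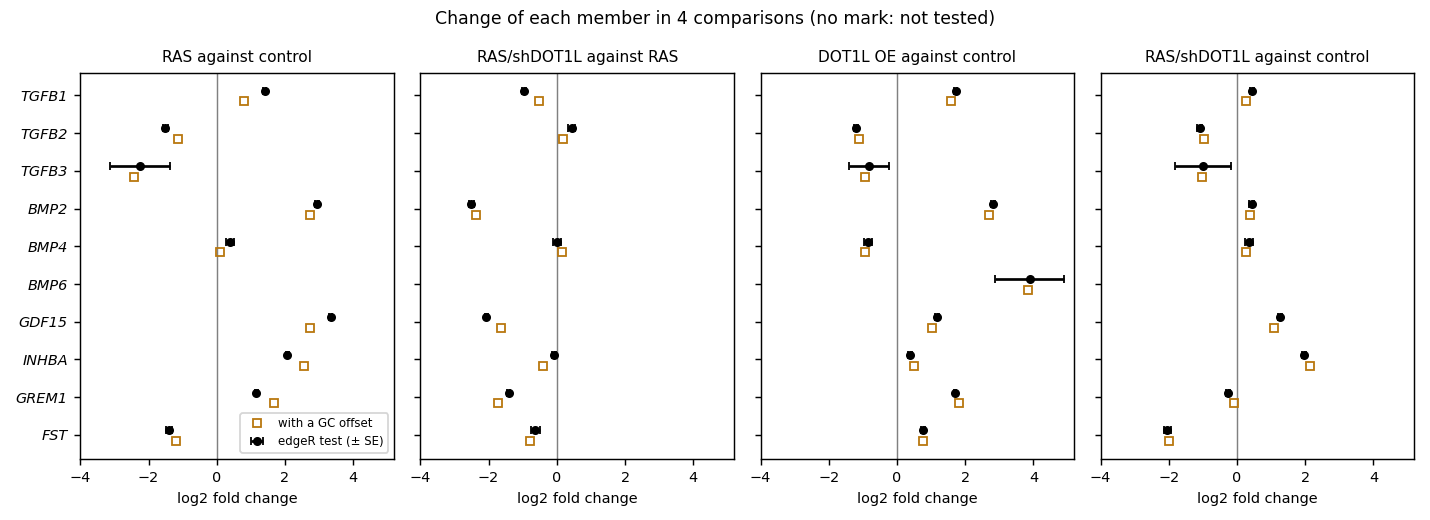
log2 fold change of each member in 4 comparisons; filled points are the edgeR estimates ± SE and open squares the estimates with a GC offset. The GC offset moved TGFB1 from 1.40 to 0.80 in RAS against control, and RAS/shDOT1L against RAS shows falls of BMP2, GDF15, GREM1, TGFB1 and FST with INHBA and BMP4 near 0.

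In RAS/shDOT1L against RAS, 8 members passed the filter, 5 fell and 1 rose. Of all tested genes 52.7% were called, 26.3% higher and 26.4% lower. The members that fell were BMP2, GDF15, GREM1, TGFB1 and FST, and TGFB2 rose. INHBA and BMP4 were not called. The groups did not overlap for 7 of the 8, as for 58.7% of tested genes, and 4 changed by over 1.5-fold, as did 17% of genes. TGFB3 and BMP6, with 19 and 2 summed counts in RAS/shDOT1L against 8 and 12 in RAS, were not tested.

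In DOT1L OE against control, all 10 members passed the filter, 7 rose and 2 fell. Of all tested genes 59.9% were called, 29.9% in each direction. TGFB1, BMP2, BMP6, GDF15, INHBA, GREM1 and FST rose, and TGFB2 and BMP4 fell. The log2 change of TGFB3 was -0.83 ± 0.59 SE (edgeR adjusted p = 0.235). The groups did not overlap for 9 of the 10, as for 64.1% of tested genes, and 8 changed by over 1.5-fold, as did 20.8% of genes. BMP6 is in each of these counts of members, though it passed the filter only through DOT1L OE, where it was high.

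In RAS/shDOT1L against control, 9 members passed the filter, 5 rose and 3 fell. Of all tested genes 55.5% were called, 27.9% higher and 27.6% lower. TGFB1, BMP2, BMP4, GDF15 and INHBA rose, and TGFB2, GREM1 and FST fell. The rise of BMP4 (edgeR log2 change 0.36 ± 0.12 SE, adjusted p = 0.0109) missed the threshold with the GC offset (0.25), with scaling by library size alone (0.25), and without control replicate 3 (0.33) or RAS/shDOT1L replicate 3 (0.27). The groups did not overlap for 8 of the 9, as for 61.8% of tested genes, and 4 changed by over 1.5-fold, as did 19.1% of genes: INHBA, GDF15, FST and TGFB2. The 4 comparisons share libraries, so their values are given side by side and no overlap between them is tested.

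The difference between the oncogene and DOT1L overexpression was tested directly in a comparison added after the values had been seen. In DOT1L OE against RAS, 9 members passed the filter, 4 rose and 4 fell. Of all tested genes 65.6% were called, 33.2% higher and 32.3% lower. The groups did not overlap for 9 members, as for 69.8% of tested genes, and 4 changed by over 1.5-fold, as did 30.3% of genes. BMP6, among those 9, passed the filter only through DOT1L OE and was not called. FST was 4.45-fold higher in DOT1L OE than in RAS (edgeR log2 change 2.15 ± 0.07 SE, adjusted p = 4.51e-15). GDF15 was 4.48-fold lower (edgeR log2 change -2.16 ± 0.06 SE, adjusted p = 8.39e-17), INHBA 3.21-fold lower (edgeR log2 change -1.68 ± 0.05 SE, adjusted p = 1.11e-15) and BMP4 2.35-fold lower (edgeR log2 change -1.23 ± 0.13 SE, adjusted p = 9.8e-08). GREM1, TGFB1 and TGFB2 were 1.46-fold, 1.25-fold and 1.25-fold higher. The GC offset moved their log2 changes from 0.54 to 0.16, from 0.32 to 0.83 and from 0.32 to 0.03, the last no longer past the test. BMP2 differed little: its log2 change of -0.14 ± 0.04 SE (95% interval -0.22 to -0.05, edgeR adjusted p = 0.0119) turned to 0.14 when libraries were scaled by size alone.

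The ratio of INHBA to FST counts within a library, the activin subunit against its antagonist, was 1.71, 1.78 and 1.93 in control, 20.9, 18.3 and 20.5 in RAS, 29.3, 27.2 and 30.9 in RAS/shDOT1L and 1.45, 1.45 and 1.27 in DOT1L OE. No pair of groups overlapped. Its mean log2 value was higher by 3.46 in RAS than in control, and the ratio was 1.47-fold higher in RAS/shDOT1L than in RAS and 1.30-fold lower in DOT1L OE than in control. Each of these had p = 0.1 in an exact permutation test, the smallest that 3 against 3 libraries can give. The counts in this ratio have no correction for gene length. In control FST stood above INHBA per length, at 28.0 against 16.8 CPM per kb.

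BMP4 to GREM1, a BMP ligand against its antagonist, was lowest in DOT1L OE. The ratio was 0.0747, 0.0794 and 0.0711 in control, 0.0517, 0.0386 and 0.0402 in RAS, 0.107, 0.119 and 0.122 in RAS/shDOT1L and 0.0113, 0.0136 and 0.0132 in DOT1L OE. No pair of groups overlapped here either, and the order was DOT1L OE, RAS, control, RAS/shDOT1L. The mean was 1.74-fold lower in RAS than in control, 2.68-fold higher in RAS/shDOT1L than in RAS and 5.93-fold lower in DOT1L OE than in control (exact permutation p = 0.1 for each). With the GC offset the log2 difference in RAS against control went from -0.80 to -1.58, and the differences of the other groups from control kept their direction. This ratio does not cover BMP2, which gremlin binds as well and which stood at 101 CPM per kb in DOT1L OE, against 4.16 for BMP4. Against control BMP2 rose 7.69-fold in RAS and 6.99-fold in DOT1L OE, more than GREM1 at 2.24-fold and 3.26-fold. From RAS to RAS/shDOT1L BMP2 fell 5.67-fold and GREM1 2.67-fold. No ratio of BMP2 to GREM1 was tested.

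**Figure D3:**
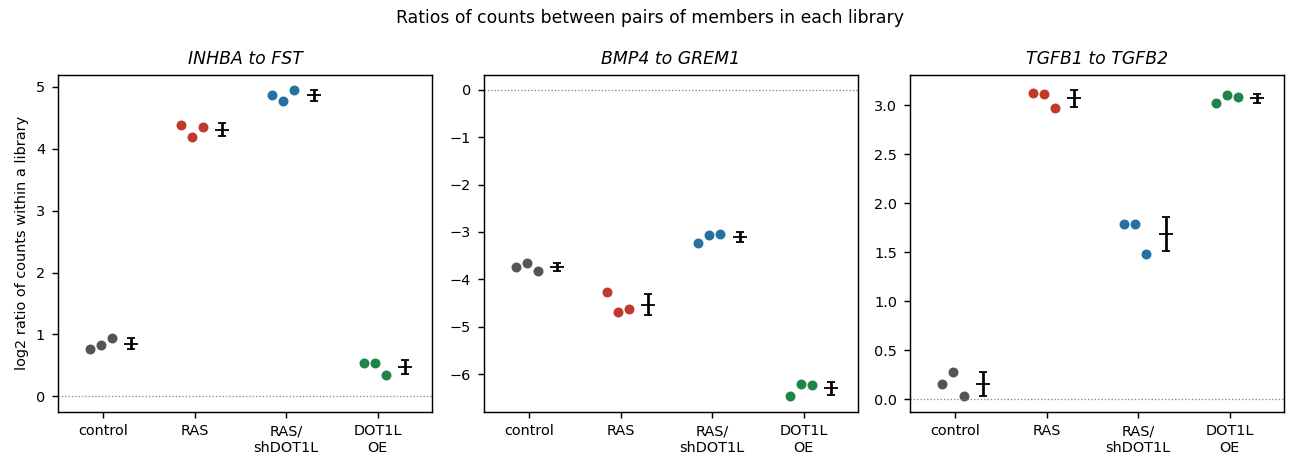
log2 ratio of the counts of 2 members within each library, for INHBA to FST, BMP4 to GREM1 and TGFB1 to TGFB2, by group; coloured points are libraries and the black mark is the mean ± SD. INHBA to FST was over 4 in every RAS and RAS/shDOT1L library and under 1 in the others, and BMP4 to GREM1 was lowest in DOT1L OE. The ratios have no correction for gene length.

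Genes that respond to these ligands were read from lists that hold no member. Of 12 BMP target genes, 10 rose and none fell in DOT1L OE against control, where 29.9% of tested genes rose, and all 10 by over 1.5-fold, as did 11.2% of genes. The median log2 change of the 12 was 3.11, against 0.006 over all genes. ID1, an inhibitor of helix-loop-helix factors and a direct BMP target, stood at 17.0, 17.3 and 23.3 CPM in control and 253, 270 and 282 in DOT1L OE. ID1 rose 14.0-fold (edgeR log2 change 3.81 ± 0.08 SE, adjusted p = 1.61e-27), its relative ID3 14.7-fold (edgeR log2 change 3.87 ± 0.07 SE, adjusted p = 9.12e-30) and ID2 7.53-fold (edgeR log2 change 2.91 ± 0.08 SE, adjusted p = 1.87e-24). SMAD7, which inhibits the receptors and responds to both pathways, rose 6.28-fold. The 2 not called were the homeobox genes MSX1 and MSX2, at log2 changes of 0.40 ± 0.23 SE and -0.01 ± 0.14 SE. HEY1, counted among the 10, had 4, 8 and 6 counts in control. It passed the filter on low counts only through DOT1L OE, where it was high.

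In RAS against control, 6 of the 12 BMP target genes rose and 2 fell, where 31.9% of all tested genes rose and 32% fell, with a median of 0.57 against -0.04 over all genes. HEY1, a Notch and BMP target, went from 0.313 ± 0.113 to 10.9 ± 2.46 CPM (SD, n = 3), SMAD7 from 12.2 ± 1.75 to 40.1 ± 1.84 and ID3 from 28.6 ± 3.49 to 59.8 ± 2.15, all past the test. HEY1 passed the filter on low counts only through RAS, where it was high, so its call is not taken as support for a rise. ID2 fell, from 14.5 ± 0.753 to 4.98 ± 1.28 CPM. SMAD9, which also fell, had 0, 21 and 2 counts in RAS and passed the filter only through control, where it was high. The GC offset moved the log2 rise of ID1 from 1.30 to 0.86 and that of ID3 from 1.06 to 0.65, both still past the test. In RAS/shDOT1L against RAS, 6 of the 11 tested fell and none rose, where 26.4% of all tested genes fell, among them SMAD7 (log2 change -1.23 ± 0.14 SE), ID1 (-0.86 ± 0.12 SE) and ID3 (-0.67 ± 0.09 SE, and -0.41 with the GC offset). With that offset ATOH8, among the 6, missed the threshold (log2 change -0.27, edgeR adjusted p = 0.329). MSX1 was then called higher (log2 change 0.68, edgeR adjusted p = 0.0183). In DOT1L OE against RAS, the comparison added later, 9 rose and 3 fell, where 33.2% of all tested genes rose and 32.3% fell. SMAD9 and ID4, among those that rose, passed the filter there only through DOT1L OE, where they were high. ID1 was 5.69-fold and ID3 7.02-fold higher in DOT1L OE than in RAS. The part of any ligand, antagonist or SMAD gene in the values of these target genes was not tested.

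Markers of other cell types moved between groups as well. For the endothelial markers the summed level of the 7 measured was 154 to 163 CPM in DOT1L OE, 74.0 to 78.9 in control, 50.6 to 58.4 in RAS/shDOT1L and at most 101 in RAS. TEK made up most of it, at 129 ± 6.52 CPM in DOT1L OE. KDR went from 0.211 ± 0.183 CPM in control to 11.6 ± 1.14 in DOT1L OE and ESAM from 1.59 ± 0.819 to 13.3 ± 2.37, and both rose with TEK in the edgeR test, while EGFL7 fell 1.88-fold. KDR, with 12 summed counts in control, passed the filter on low counts only through DOT1L OE, where it was high. In RAS against control, 4 of 5 tested rose and none fell, where 31.9% of all tested genes rose. CLDN5 rose 15.6-fold, ESAM 8.79-fold and EGFL7 2.42-fold. CLDN5 and KDR passed the filter there only through RAS, where they were high. ESAM stood at 14.0 ± 1.51 CPM in RAS and 10.1 ± 2.83 in RAS/shDOT1L. CDH5, the endothelial cadherin, had no count in control, RAS or DOT1L OE. The epithelial sum was 322 to 334 CPM in RAS/shDOT1L and 104 to 174 elsewhere, carried by KRT18, with SFTPC at 0 in all 12 libraries. Immune markers summed to 0.188 to 5.43 CPM. The part of other cell types in the BMP target values was not tested.

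TGF-beta target genes did not move one way. Of 23 tested, 10 rose and 12 fell in RAS against control, 11 rose and 10 fell in RAS/shDOT1L against RAS, and 9 rose and 13 fell in DOT1L OE against control, with medians of -0.28, 0.21 and -0.40 against -0.04, 0.03 and 0.006 over all genes. Of all tested genes 64%, 52.7% and 59.9% were called in these comparisons. TAGLN, the gene of transgelin, fell in both RAS and DOT1L OE and had 2749 ± 37.2 CPM in control and 2019 ± 52.7 in RAS/shDOT1L, against 925 ± 37.8 in RAS and 753 ± 72.1 in DOT1L OE. ACTA2, the smooth muscle actin of activated fibroblasts, also fell in both and stood at 535 ± 20.9, 614 ± 42.5, 258 ± 13.8 and 151 ± 4.30 CPM in the same order of groups. Both were higher in RAS/shDOT1L than in RAS (TAGLN log2 change 1.14 ± 0.04 SE, ACTA2 1.27 ± 0.05 SE). FN1, the matrix protein fibronectin, fell 2.35-fold in DOT1L OE and 1.44-fold in RAS, where the log2 change went from -0.53 to -0.14 with the GC offset. JUNB rose 5.38-fold in RAS. Among the 9 that rose in DOT1L OE against control, ELN went from 4.77 ± 2.04 to 51.9 ± 1.97 CPM and TGFBI from 3409 ± 46.2 to 6220 ± 27.0.

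**Figure D4:**
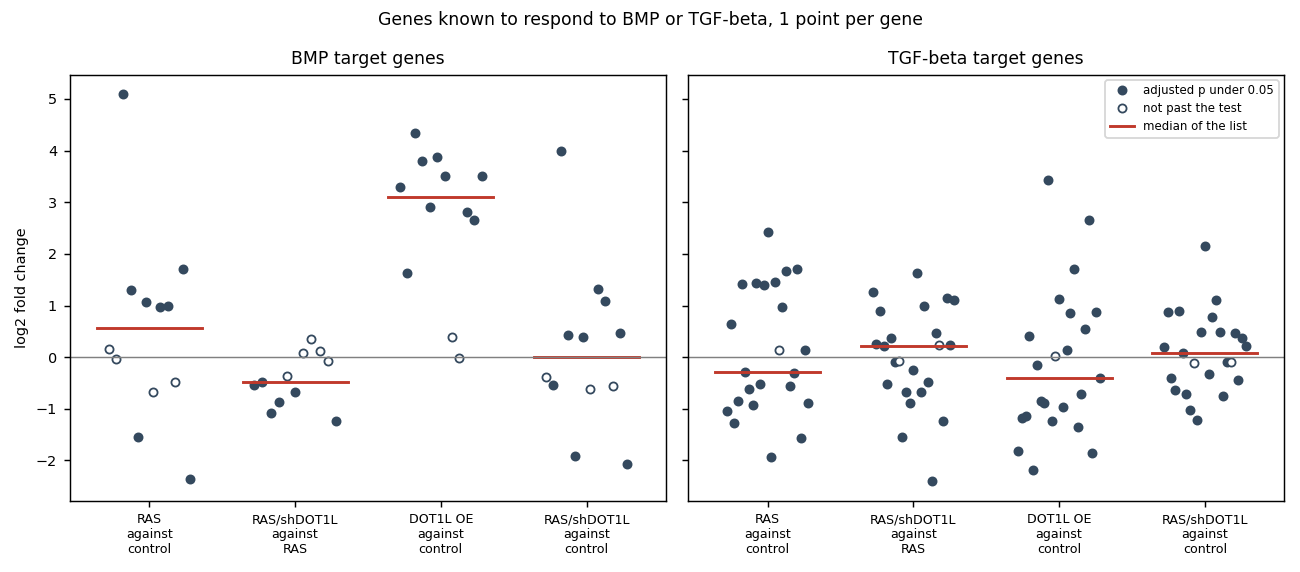
log2 fold change of each tested BMP or TGF-beta target gene in 4 comparisons, 1 point per gene, filled where the edgeR adjusted p was under 0.05; red lines are list medians. In DOT1L OE against control the BMP target genes had a median of 3.11 with 10 of 12 called higher, and the TGF-beta target genes a median of -0.40.

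Other secreted antagonists changed with FST and GREM1 in part. In RAS against control 2 of 8 tested rose and 4 fell, where 64% of all tested genes were called. NOG, the gene of the BMP antagonist noggin, had 55.6 ± 4.62 CPM in control, 36.4 ± 2.26 in DOT1L OE, 13.0 ± 1.76 in RAS/shDOT1L and 10.6 ± 2.91 in RAS. TWSG1, an extracellular modulator of BMP, fell 3.20-fold in RAS and 3.19-fold in DOT1L OE, and DCN, a proteoglycan that binds TGF-beta, fell 2.36-fold in RAS. With the GC offset the log2 changes in RAS were -1.06 for TWSG1 and -0.71 for DCN, from -1.68 and -1.24. FSTL3, a relative of FST, rose 2.18-fold in DOT1L OE. Its log2 change of -0.41 from RAS to RAS/shDOT1L was 0.03 with the GC offset and then missed the threshold (edgeR adjusted p = 0.749). Of the 23 other ligands, 5 or 6 passed the filter in each comparison. BMP7 rose 9.32-fold in RAS and 7.13-fold in DOT1L OE, from 0.622 ± 0.197 CPM in control. With 36 summed counts in control, BMP7 passed the filter on low counts only through RAS or DOT1L OE, where it was high.

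Of the receptors, 4 of 14 rose and 8 fell in RAS against control, and 4 rose and 6 fell in DOT1L OE against control, where 64% and 59.9% of all tested genes were called. ACVRL1, a type I receptor, rose 5.17-fold in RAS and 2.23-fold in DOT1L OE, and fell 3.15-fold from RAS to RAS/shDOT1L. RGMB, a BMP co-receptor, fell 4.59-fold in RAS and 4.12-fold in DOT1L OE. TGFBR2, the type II TGF-beta receptor, was 1.95-fold lower in DOT1L OE than in control and 1.38-fold higher in RAS/shDOT1L than in RAS (log2 change 0.47, and 0.22 with the GC offset). Of 17 genes for latency and activation tested in RAS against control, 7 rose and 8 fell, where 31.9% of all tested genes rose and 32% fell. LTBP1, which tethers latent TGF-beta to the matrix, fell 1.81-fold in RAS and a further 1.84-fold in RAS/shDOT1L, and FURIN, a protease that cleaves TGF-beta precursors, rose 2.09-fold in RAS (log2 change 1.06, and 0.51 with the GC offset). Of 17 SMADs and intracellular regulators, 13 rose and 4 fell in DOT1L OE against control, where 29.9% of all tested genes were called in each direction, and the ubiquitin ligase gene SMURF2 fell 2.58-fold. Some genes, such as SMAD7 and LTBP2, stand in more than one list.

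The genes whose log2 CPM was most like each member over the 12 libraries were sought among 8554 genes (8555 for TGFB3 and BMP6) with a mean of at least 10 CPM. They were CTSB (Pearson r = 0.998) and PLAUR (0.994) for GDF15, ECE1 (0.998) and TGM2 (0.997) for INHBA, and CDC6 (0.996) and SLC38A2 (0.994) for FST. For BMP2 they were SQSTM1 (0.995) and MEF2D (0.993), for TGFB1 PPP1R15A (0.993) and RIPOR3 (0.993), for TGFB2 RCN2 (0.995) and GALNT5 (0.992), for GREM1 SF3A1 (0.991) and VASN (0.9899), and for BMP4 NT5C3B (0.972) and NAT9 (0.971). The few counts of TGFB3 and BMP6 gave lower values, SPAST (0.878) and ITPK1 (0.926) the highest. With 4 groups the points share their group, so these values describe likeness only.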

How the data were processed

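Poly(A) RNA of 12 libraries was sequenced, and the authors aligned paired-end reads to GRCh38 with STAR. The deposited values are raw counts per Ensembl gene ID. STAR 2.6.1 and DESeq2 2 are named in the processing notes of the submitters. The annotation release and strand setting are not given in the sources used here. Symbols were found for 69.82% of IDs. Coordinates, exon lengths and GC content came from GENCODE 44 on GRCh38. Libraries of a group were not duplicates, with chi-square values per degree of freedom from 4.33 to 7.87.

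Counts were tested in edgeR 4.0.16 under R 4.3.3 (filterByExpr, TMM, quasi-likelihood F test, two-sided) on the 6 libraries of each comparison, with Benjamini-Hochberg adjustment over all genes tested. Changes of over 1.5-fold were tested with glmTreat. The fits were checked on simulated counts. CPM used TMM factors over all 12 libraries. SE was the log2 change divided by the square root of F. Ratios of counts within a library were compared by an exact permutation test. The members and lists were chosen with earlier results of these data known. Named were the members, DOT1L and HRAS, up to 3 called genes of a list per comparison by smallest p, and the 2 genes most like each member. MSX1, MSX2, ELN, TGFBI and the marker genes were named after their values were seen. Alternatives were no filter beyond 1 count, library size as the only scaling, scaling by DESeq2 size factors, the test of DESeq2 1.42.0, 1 fit over all 4 groups, a replicate block, a GC offset over 20 bins, 0.5 counts added to ratios, and each library left out in turn. DOT1L OE against RAS, and the GC offset for ratios (the difference of the log2 changes of both genes), were added after the values had been seen.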

Additional observations from a re-analysis of the deposited data

How the results depend on the processing

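Counts of genes, members and listed genes called per comparison stayed within 1.5 times under every alternative run on them, DOT1L OE against RAS included, though some counts of single lists of few genes moved more. The 3 ratios moved by less than their spread with 0.5 counts added and with each library left out. The GC offset, added for the ratios after seeing the data, moved every log2 difference by more than the spread and turned none that stood apart. In the order RAS against control, RAS/shDOT1L against RAS, DOT1L OE against control, RAS/shDOT1L against control and DOT1L OE against RAS, it gave 3.76, 0.37, -0.28, 4.13 and -4.03 for INHBA to FST, -1.58, 1.89, -2.75, 0.34 and -1.18 for BMP4 to GREM1, and 1.93, -0.70, 2.70, 1.23 and 0.79 for TGFB1 to TGFB2. Of 468 member values in the planned comparisons, 445 kept their direction and side of the threshold. The exceptions with a turned sign were BMP4 in RAS/shDOT1L against RAS, at 0.0696 with library size as the only scaling, 0.16 with the GC offset, 0.0045 with the replicate number as a block and -0.0885 to 0.137 with each library left out in turn, positive without RAS replicate 1 or RAS/shDOT1L replicate 1, and, in the added comparison, BMP2 at 0.14 with library size as the only scaling. Calls that were lost belonged to TGFB3 and BMP4 in RAS against control, TGFB2 in RAS/shDOT1L against RAS, and BMP4 and GREM1 in RAS/shDOT1L against control. In DOT1L OE against RAS, BMP2 was lost with the GC offset and without DOT1L OE replicate 3, and TGFB2 with the GC offset. The cause was not tested. The replicate block changed no other call; libraries with the same number had deviations correlated at -0.11 to 0.13, so the numbers were not taken to pair them. Leaving out each library gave 7 to 9 members called in RAS against control and 7 to 8 in RAS/shDOT1L against control. Depth limits TGFB3 and BMP6, with at most 18 counts in a library.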
